A study of Mus musculus with 42 samples.

Results

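The comparison described here is that of H3K27ac in wild-type (WT) bone marrow-derived macrophages (BMDMs) after 18 h of LPS with H3K27ac in untreated cells (0 h), with 3 libraries in each group. These are 6 of the 42 ChIP-seq libraries of the series, and 6 of its 18 H3K27ac libraries. Deposited regions of the 6 libraries were merged wherever they overlapped, which gave 53951 regions, and the normalized tags of each library were summed over each region. A region was called a promoter region when it came within 2500 bp of the start of a protein-coding gene on mm10 (11209 regions) and a distal region otherwise (42742 regions). Of these, 45506 (10754 promoter and 34752 distal) were found in at least 2 of 3 libraries of either group and were tested.

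The cells came from the bone marrow of male C57Bl6/J mice aged 6 to 12 weeks, the WT littermates of Nur77-KO mice, and were differentiated for 7 days in medium conditioned by L929 cells. LPS was given at 100 ng/ml. The methods speak of biological replicates but not of the number of mice behind a library, so p-values measure the spread between these libraries. WT libraries of H3K27ac at 1 h of LPS and of RNA polymerase II (Pol II) at 0 h and 18 h, 3 per group, the WT inputs at 0 h and 18 h, 1 each, and H3K27ac at 0 h and 18 h in Nur77-KO BMDMs, 3 per group, are used beside the main comparison. The Nur77-KO mice lack Nur77 (Nr4a1) in the whole body after crossing a loxP-flanked allele with CMV-driven Cre, and the genotype label of these libraries reads "cre" although the mice are described as having lost the Cre allele.

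H3K27ac is the acetylation of lysine 27 on histone H3, placed by the acetyltransferases CBP and p300 and found on the nucleosomes that flank active promoters and enhancers. LPS, a component of the wall of Gram-negative bacteria, is sensed by Toll-like receptor 4, which signals through the adaptors MyD88 and TRIF to the transcription factors NF-kB, AP-1 and IRF3. TRIF and IRF3 lead to interferon beta, which acts back on the macrophage through STAT2 and IRF9 at the interferon-stimulated response element (ISRE). PU.1 (encoded by Spi1) and C/EBP factors occupy many macrophage enhancers before any stimulus, and E2F factors bind promoters of replication genes.

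Sequences of promoters and regions that the results below turn on were as follows, all 5′ to 3′ and on GRCm38.p6 (the NCBI name of mm10). The promoters, from RefSeq, run from 250 bases before to 50 bases after the gene start. In Cxcl10 (chr5:92348840-92349139, minus strand), Ifit1 (chr19:34640639-34640938, plus strand), Rsad2 (chr12:26456403-26456702, minus strand) and Il6 (chr5:30012864-30013163, plus strand), capitals mark matches to the ISRE letters GAAANNGAAA and to the NF-kB motif. They are shown because H3K27ac was called higher at all of these starts.
Cxcl10: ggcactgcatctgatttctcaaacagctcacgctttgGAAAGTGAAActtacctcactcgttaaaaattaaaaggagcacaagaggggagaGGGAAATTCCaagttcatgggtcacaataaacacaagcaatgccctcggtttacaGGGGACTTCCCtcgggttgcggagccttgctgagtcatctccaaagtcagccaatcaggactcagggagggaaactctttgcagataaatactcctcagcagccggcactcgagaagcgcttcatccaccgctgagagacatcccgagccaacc
Ifit1: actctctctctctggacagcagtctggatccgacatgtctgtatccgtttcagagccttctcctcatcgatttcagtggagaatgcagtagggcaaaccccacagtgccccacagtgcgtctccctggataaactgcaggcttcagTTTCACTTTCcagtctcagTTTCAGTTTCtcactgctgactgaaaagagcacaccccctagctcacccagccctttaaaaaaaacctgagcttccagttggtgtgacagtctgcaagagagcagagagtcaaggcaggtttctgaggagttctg
Rsad2: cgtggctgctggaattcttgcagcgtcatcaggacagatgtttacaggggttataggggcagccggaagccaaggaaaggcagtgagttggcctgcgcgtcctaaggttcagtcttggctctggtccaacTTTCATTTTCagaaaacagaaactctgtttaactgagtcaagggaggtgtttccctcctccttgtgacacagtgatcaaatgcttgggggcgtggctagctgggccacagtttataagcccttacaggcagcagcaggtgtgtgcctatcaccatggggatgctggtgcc
Il6: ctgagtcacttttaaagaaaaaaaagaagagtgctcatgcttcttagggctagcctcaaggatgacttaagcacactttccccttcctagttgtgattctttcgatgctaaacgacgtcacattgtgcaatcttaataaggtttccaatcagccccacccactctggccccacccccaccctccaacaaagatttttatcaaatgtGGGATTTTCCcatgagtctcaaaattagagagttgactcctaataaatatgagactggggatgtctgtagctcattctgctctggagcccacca

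In Mcm5 (chr8:75109259-75109558, plus strand) and Top2a (chr11:99024140-99024439, minus strand), which were called lower, capitals mark the E2F letters GGCGGGA on either strand.
Mcm5: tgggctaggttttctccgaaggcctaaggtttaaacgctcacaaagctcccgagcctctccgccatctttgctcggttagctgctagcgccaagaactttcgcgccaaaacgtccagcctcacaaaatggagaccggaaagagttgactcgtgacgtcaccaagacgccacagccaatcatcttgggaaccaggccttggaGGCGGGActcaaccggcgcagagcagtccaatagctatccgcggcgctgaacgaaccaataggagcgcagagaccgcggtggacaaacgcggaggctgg
Top2a: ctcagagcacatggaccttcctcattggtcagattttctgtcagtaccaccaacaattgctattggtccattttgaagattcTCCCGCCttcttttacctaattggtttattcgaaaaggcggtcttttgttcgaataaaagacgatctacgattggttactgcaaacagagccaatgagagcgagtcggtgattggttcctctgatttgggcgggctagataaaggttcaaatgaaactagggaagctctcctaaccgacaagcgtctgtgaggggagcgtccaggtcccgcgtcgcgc

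Among the distal regions with the largest changes, 100-base stretches are shown around a match in 2 that were called higher and 2 that were called lower. Capitals mark ISRE letters in the region nearest to Slco3a1 (chr7:74695462-74695561), the NF-kB motif in the region nearest to Car13 (chr3:14668663-14668762), and the PU.1 letters GAGGAAG in the regions nearest to Rasa1 (chr13:85505263-85505362) and Gsdmc (chr15:63606036-63606135), all on the plus strand. The letters were not particular to a direction in these 4 regions. The PU.1 letters stood 3 times each in the whole Slco3a1 and Car13 regions, 6 times in that of Rasa1 and 16 times in that of Gsdmc, and the ISRE letters 4, 1, 3 and 2 times.
Slco3a1: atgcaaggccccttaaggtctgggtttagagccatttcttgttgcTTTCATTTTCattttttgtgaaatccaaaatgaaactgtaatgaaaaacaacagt
Car13: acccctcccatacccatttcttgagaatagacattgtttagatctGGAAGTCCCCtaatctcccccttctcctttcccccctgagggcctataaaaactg
Rasa1: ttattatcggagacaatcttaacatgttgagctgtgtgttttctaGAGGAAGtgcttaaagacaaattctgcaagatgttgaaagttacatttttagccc
Gsdmc: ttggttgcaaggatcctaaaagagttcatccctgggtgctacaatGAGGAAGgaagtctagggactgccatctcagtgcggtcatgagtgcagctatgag

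The 0 h libraries held 21.38 to 23.14 M tags (M for mega) and the 18 h libraries 15.04, 16.6 and 31.15 M. All values are normalized tags per 10 M tags of the library (written "tags" below). A library in which no region was found has the value 0. This value says that no region passed the search there and not that there were no reads. A group listed at 0 in all 3 libraries therefore has no measured spread. A p-value at such a region does not measure the spread between the libraries of that group. The 0 h libraries listed 43805 ± 1194 regions and the 18 h libraries 39435 ± 2595 (SD, n = 3 each), with no overlap between the groups (exact two-sided permutation test p = 0.1, the smallest that 3 against 3 allows). The search asked for more normalized tags per window in the shallower libraries (7.98 and 7.23 in the 18 h libraries of 15.04 and 16.6 M tags, against 6.05 to 6.55 at 0 h and 5.46 in the deepest 18 h library), so weak regions were more easily listed at 0 there. Counting only regions above 1 density floor common to all libraries gave 36640 ± 285 at 0 h and 34847 ± 3085 at 18 h (SD, n = 3 each), and the groups then overlapped (exact two-sided permutation test p = 0.5). Over the 27159 regions found in all 6 libraries, libraries of 1 group correlated at r = 0.99 to 0.993 and libraries of different groups at r = 0.812 to 0.819 (Pearson's r on the log2 scale, across regions, which are not independent replicates).

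H3K27ac differed between 18 h and 0 h in a large part of the regions, more often at distal regions than at promoters, and more regions were lower than higher. In bulk chromatin, a change in the share of cells that carry the mark and a change in each cell cannot be told apart. With limma on log2(tags + 10), 17874 of the 45506 tested regions (39.3%) were called, that is, had a Benjamini-Hochberg adjusted p under 0.05 and a log2 change beyond 1 in either direction. Of these, 6505 (14.3%) were higher and 11369 (25.0%) lower at 18 h. Promoter regions were higher in 879 (8.17%) and lower in 1187 (11.0%) of 10754 cases, and distal regions were higher in 5626 (16.2%) and lower in 10182 (29.3%) of 34752. The median log2 change was -0.05 over promoter regions and -0.41 over distal regions. The excess of lower calls depended on the scaling. When each library was centred on its median over regions found in all 6, 8204 regions were higher and 9136 lower, and promoter regions then split into 1197 higher and 872 lower. With a pseudocount of 50, promoter regions were higher in 589 cases and lower in 448. After quantile normalization the split was 8153 higher to 8731 lower over all regions, and 7144 higher to 7811 lower over distal regions.

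**Figure D1:**
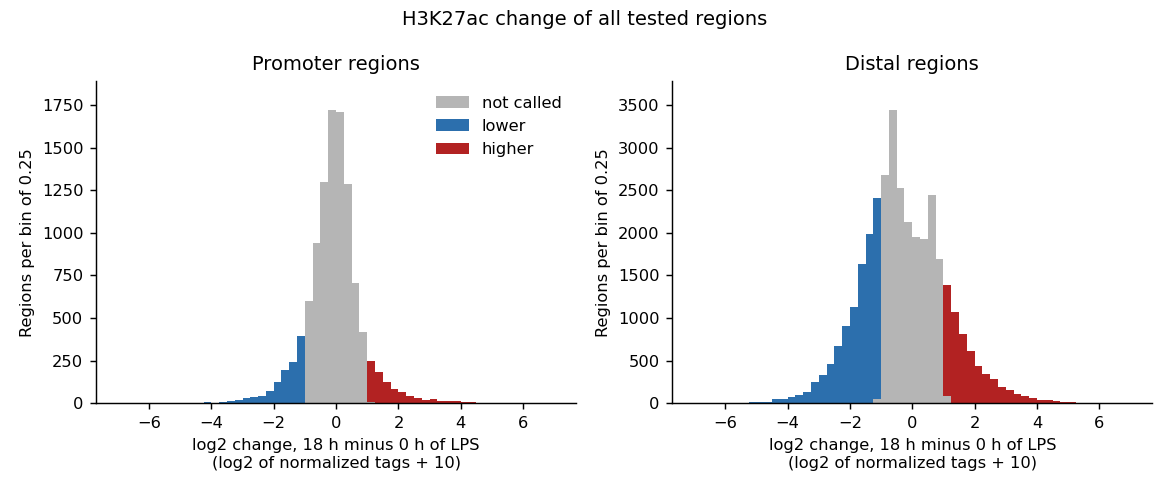
Number of tested regions (y axis) by their log2 change of H3K27ac at 18 h against 0 h of LPS (x axis, log2 of normalized tags + 10, bins of 0.25), for promoter regions (left) and distal regions (right). Blue bars are the 1187 promoter and 10182 distal regions called lower, red bars the 879 and 5626 called higher and grey bars the rest, and the distal distribution is wider with its bulk below 0.

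Called regions ranged from modest to very large changes. The median log2 change of the higher regions was 1.53 at promoters and 1.62 at distal sites, and that of the lower regions -1.46 and -1.61. On the log2 scale, in which a region listed at 0 enters at the pseudocount of 10, changes beyond 4 were seen at 27 promoter and 141 distal regions that were higher, and at 12 promoter and 157 distal regions that were lower. The values of the 3 libraries at 18 h lay wholly above or below those at 0 h in 99.8% of the regions called higher and 99.7% of those called lower, and in 55.7% of the regions not called. A higher call went with a region listed in none of the 0 h libraries and in all 18 h libraries at 129 promoters and 2300 distal sites, and a lower call with the opposite at 298 promoters and 4169 distal sites. These gained and lost regions were weak, with median mean levels between 21.2 and 24.3 tags in the group that had them. When only regions found in all 6 libraries were tested, 7527 of 27159 were called, 3049 higher and 4478 lower.

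The inputs (chromatin without antibody, 1 library per time, 35.06 M tags at 0 h and 25.6 M at 18 h) were larger at 18 h where H3K27ac was called higher and were not smaller in most regions where it was called lower. The input was larger at 18 h in 85.9% of the promoter and 76.3% of the distal regions called higher and larger at 0 h in 1.48% and 2.61%. In regions called lower it was larger at 18 h in 37.7% and 37.6% and larger at 0 h in 19.5% and 26.9%. In regions not called it was larger at 18 h in 73.4% and 60.5% and larger at 0 h in 8.85% and 10.4%. In the distal regions called higher the mean input was 6.35 tags at 0 h and 25.5 at 18 h, against a mean H3K27ac of 53.9 and 199 tags. In the distal regions called lower it was 11.9 and 12.8 tags, against a mean H3K27ac of 137 and 33.4. In the promoter regions called lower the mean input was 86.1 tags at 0 h and 60.7 at 18 h, against a mean H3K27ac of 300 and 102, so the input came to 28.7% and 59.6% of the H3K27ac there. Subtracting the input of the same time from each library gave 18041 called regions, 5341 higher and 12700 lower. Of the 17874 called without it, 15872 were among these, 1697 were not called and 305 were not tested. When only regions that overlap no input region were tested, 5396 were called, 1292 higher and 4104 lower. The part of the input in the calls was not tested otherwise. The authors had searched the libraries without an input as control.

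The promoter regions with the largest gains lay at Rmi2, Ifi44, Clic5, Slfn4, Ifi205 and Gbp4, and each of the 6 was at or near 0 before LPS. At the start of Ifi44, an interferon-induced gene (chr3:151745924-151750783), the 0 h libraries listed no region and the 18 h libraries had 498, 508 and 515 tags. Slfn4, a Schlafen family gene, had 0, 7.35 and 11 tags at 0 h and 624, 644 and 588 at 18 h (chr11:83171885-83179736; log2 change 5.35 ± 0.25 SE, adjusted p = 1.2e-06). Ifi205, whose family senses DNA, went from 22.5, 18.8 and 18.2 to 977, 1130 and 1060 tags (chr1:174027705-174033558; log2 change 5.16 ± 0.08). The region that covers the starts of the guanylate-binding protein genes Gbp4, Gbp8 and Gbp9 (chr5:105137416-105147697) had 14.3, 7.99 and 0 tags at 0 h and 565, 585 and 551 at 18 h. Rmi2, a subunit of the BLM helicase complex, had 11.9, 10.8 and 0 tags and then 952, 998 and 976 (chr16:10837017-10847246; log2 change 5.89 ± 0.28), the largest log2 change of the promoter gains with a value above 0 in both groups. Clic5, a chloride intracellular channel protein, had 9.05, 0 and 0 tags at 0 h and 542, 566 and 581 at 18 h (chr17:44185805-44194456). The 6 were picked among regions in which 18 h and 0 h libraries did not overlap, so that separation is not a result.

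The promoter regions with the largest losses lay at Cmbl, Oacyl, Slco2b1, Gprc5c, Rasgrp3 and Angptl4. Oacyl, named as an acyltransferase, had 1380, 1460 and 1480 tags at 0 h and 42.9, 50.6 and 38.4 at 18 h (log2 change -4.75 ± 0.08, adjusted p = 2.4e-08). Angptl4, a secreted inhibitor of lipoprotein lipase, had 223, 250 and 222 tags and then 0, 0 and 6.26 (chr17:33778413-33783976; log2 change -4.36 ± 0.2). Cmbl, an esterase of the carboxymethylenebutenolidase family, had 448, 469 and 440 tags and then 0, 0 and 13.3 (chr15:31563102-31568299). Rasgrp3, an exchange factor that activates Ras proteins, had 772, 838 and 756 tags and then 13.3, 33.1 and 39.8 (chr17:75434605-75444486; log2 change -4.44 ± 0.26). The organic anion transporter gene Slco2b1 (289, 221 and 270 tags) and the orphan receptor gene Gprc5c (217, 194 and 214 tags) were listed at 0 in all 18 h libraries. At 1 h Gprc5c stood above its 0 h values, at 337, 331 and 375 tags, while the other promoter losses named here stood below theirs.

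**Figure D2:**
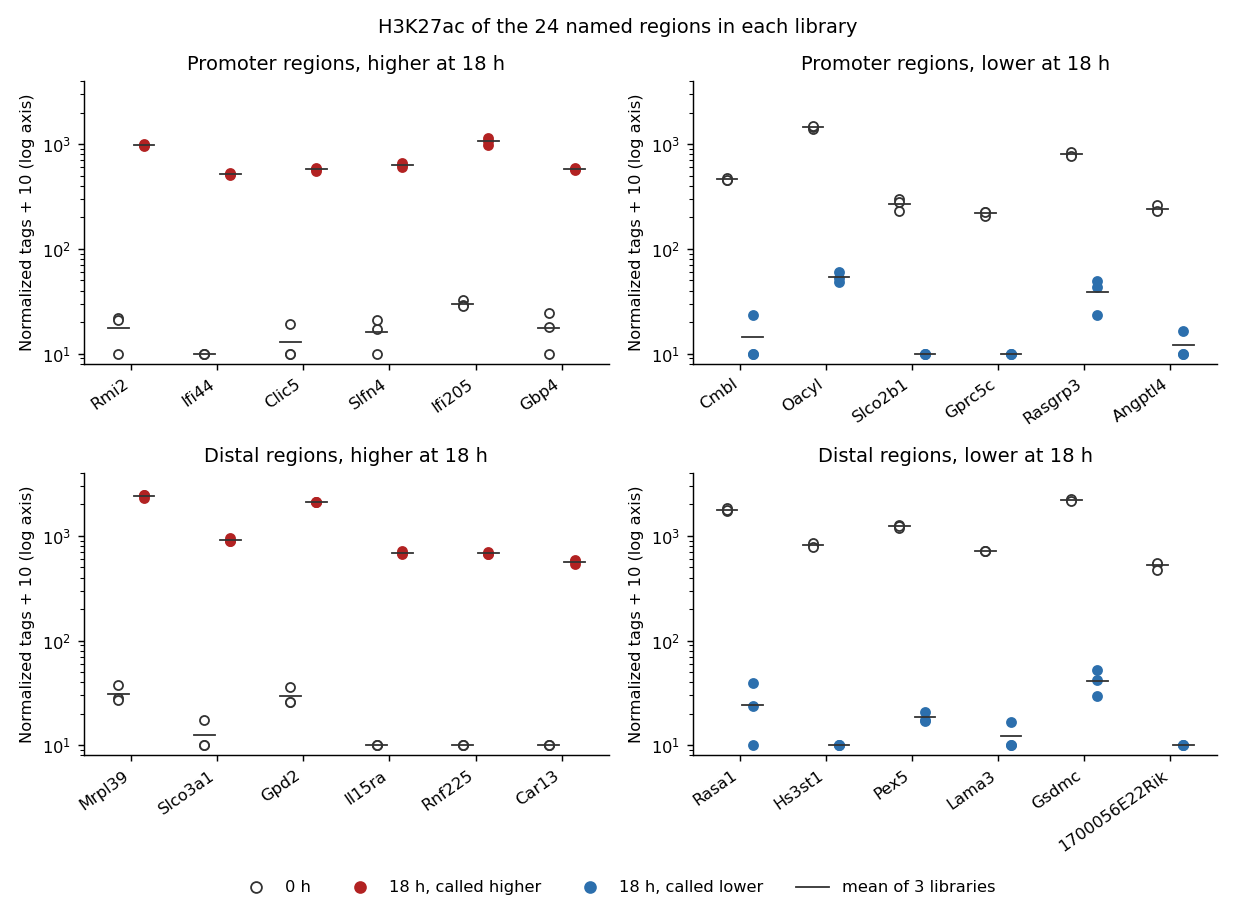
Normalized tags + 10 (y axis, log scale) in each library for the 24 regions with the largest changes, 6 for each class and direction, named by the gene at the promoter or the nearest gene start (x axis). Open circles are 0 h libraries, filled circles 18 h libraries and lines group means. The groups lie apart in all 24 because the regions were picked so, and the promoter gains end between 498 and 1130 tags.

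The distal region with the largest positive log2 change lay over the gene of a microRNA, although the changes of regions listed at 0 before LPS depend on the pseudocount. The region at chr16:84698520-84719098 is nearest to the protein-coding gene Mrpl39, an exon of which it overlaps, but it holds all of Mir155hg (chr16:84713023-84715245), the host transcript of miR-155, which macrophages make in response to LPS. It had 18.1, 27.9 and 17.3 tags at 0 h and 2430, 2270 and 2460 at 18 h (log2 change 6.28 ± 0.12, adjusted p = 3e-08). At 1 h it already had 2180, 2240 and 2130 tags. The input over this region went from 17.7 to 205 tags.

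The other distal gains were intergenic or intragenic. The region 136831 bp from the start of Slco3a1, a solute carrier gene (chr7:74691611-74699989, intergenic), had 7.5, 0 and 0 tags at 0 h and 885, 942 and 878 at 18 h (log2 change 6.24 ± 0.21). Within Gpd2, the mitochondrial glycerol 3-phosphate dehydrogenase gene (chr2:57293136-57304627), the values were 26.3, 15.8 and 15.9 and then 2100, 2110 and 2090 tags (log2 change 6.19 ± 0.13). The region nearest to the start of Il15ra (chr2:11687410-11694010) overlaps an exon of its neighbour Il2ra, the alpha chain of the interleukin 2 receptor. It was listed at 0 in all 0 h libraries and had 659, 703 and 670 tags at 18 h. The regions nearest to Rnf225 (chr7:12934817-12940659) and Car13 (chr3:14665775-14675440), both intergenic, were also listed at 0 at 0 h and had 659 to 688 and 530 to 572 tags at 18 h. The Slco3a1, Gpd2, Il15ra and Car13 regions stood between their 0 h and 18 h levels at 1 h, at 192 to 220, 634 to 653, 204 to 240 and 123 to 135 tags.

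The largest distal losses came to almost nothing at 18 h. The region nearest to Rasa1 (chr13:85501820-85510679, intergenic) had 1710, 1850 and 1760 tags at 0 h and 0, 13.9 and 29.7 at 18 h (log2 change -6.4 ± 0.44). The region nearest to Gsdmc (chr15:63600333-63619500, intergenic), 19168 bp long, had 2200, 2240 and 2150 tags and then 42.2, 19.3 and 31.7 (log2 change -5.79 ± 0.19). The region nearest to Pex5 (chr6:124371721-124378850) had 1180, 1250 and 1230 tags and then 11, 7.23 and 7.38 (log2 change -6.06 ± 0.09). An intronic region of Hs3st1, a heparan sulfate sulfotransferase gene (chr5:39628289-39642169), had 778 to 835 tags and was listed at 0 in every 18 h library, as was an intergenic region nearest to 1700056E22Rik (464 to 541 tags at 0 h). An intronic region of Lama3, a laminin chain gene, had 705 to 710 tags at 0 h and 0, 0 and 6.58 at 18 h. At 1 h these 6 regions had 40.7 to 356 tags, below every 0 h value.

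MicroRNA genes were then looked up in all regions, a step added after the Mir155hg result was seen. Of 1225 RefSeq hairpins, 202 lay in a tested region, and 19 of these were in regions called higher (8 promoter, 11 distal) and 23 in regions called lower (8 promoter, 15 distal). These are 6.15% higher and 6.15% lower of the 130 hairpins in promoter regions and 15.3% higher and 20.8% lower of the 72 in distal regions, near or below the 8.17%, 11.0%, 16.2% and 29.3% of all regions, and 4 of the called ones are described here beside Mir155. The region of Mir223, a microRNA of myeloid cells (chrX:96235605-96246492), had 2140, 2380 and 2170 tags in the untreated libraries and 576, 582 and 542 after 18 h (log2 change -1.96, adjusted p = 7e-08). Its level after 1 h lay between, at 1240, 1240 and 1270 tags. The region of Mir511, which lies within the mannose receptor gene Mrc1 (chr2:14260179-14264626), had 190, 206 and 190 tags and then 71.5, 69.3 and 65.3 (log2 change -1.38), and at 1 h it was at 36.7, 25.3 and 40.5. Mir210, known as a hypoxia-induced microRNA, lay in a region with 69.1, 56.4 and 39.8 tags at 0 h and 250, 264 and 239 at 18 h (chr7:141219039-141223132; log2 change 2.03). Mir21a lay in a region with 10900 to 11700 tags at 0 h and 22900 to 23300 at 18 h (chr11:86566929-86631933; log2 change 1.03). No RNA was measured in these libraries. The mature sequences (RefSeq, seed of bases 2 to 8 in capitals) show that the 5 share no seed.
mmu-miR-155-5p: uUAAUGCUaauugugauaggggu
mmu-miR-210-3p: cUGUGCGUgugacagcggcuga
mmu-miR-21a-5p: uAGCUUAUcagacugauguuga
mmu-miR-223-3p: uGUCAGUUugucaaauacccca
mmu-miR-511-3p: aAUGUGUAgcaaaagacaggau

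For single genes, the tags of regions within 2500 bp of the gene start were summed, sharing out a region by its overlap, and tested in the same way over 11803 genes. Of these starts, 758 (6.42%) were called higher and 1038 (8.79%) lower, and the median log2 change was -0.03. The excess of lower starts turned under other settings, with 493 higher and 371 lower at a pseudocount of 50 and 830 higher and 819 lower after quantile normalization. Genes whose starts lie close together share regions, and their values are then not independent. The gene lists below were chosen with earlier results of these data known, so their shares describe the lists and do not test them. Pol II was measured from 500 bp before the start to 500 bp past the end of a gene, and 1689 (12.6%) of 13359 genes were called higher and 1886 (14.1%) lower. With a pseudocount of 50 this excess turned as well, to 1238 higher and 994 lower.

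Interferon-response genes had the largest share of starts called higher among the lists. All 19 tested starts were called higher, beside 6.42% of all starts, with a median log2 change of 2.86, and all 19 genes were also called higher for Pol II (median 4.69), beside 12.6% of all genes. Cxcl10, a chemokine that draws T cells, had 23.6, 16.4 and 22 tags at 0 h and 785, 772 and 721 at 18 h (log2 change 4.66 ± 0.1, adjusted p = 1.6e-08). Ifit1, an RNA-binding restriction factor, had 56.7, 61.6 and 69 tags and then 926, 889 and 773 (3.59 ± 0.09). Gbp5, a guanylate-binding protein gene, had 34.8 to 44.5 tags and then 974 to 1090 (4.42 ± 0.09). Zbp1, a sensor of Z-form nucleic acid, had 91.2 to 106 tags and then 1040 to 1200 (3.38 ± 0.07). Rsad2 and Cmpk2, antiviral genes with neighbouring starts, had the same values at 18 h (814 to 949 tags) and had log2 changes of 3.02 and 3.22. The signalling components Stat2 (1.8 ± 0.07) and Irf7 (2.73 ± 0.08) were also higher. Irf1 was just inside the threshold, with 278, 231 and 359 tags at 0 h and 774, 510 and 493 at 18 h (1 ± 0.19). It was not called without the first 0 h library (0.99), the second (0.86) or the first 18 h library (0.8). Cxcl9 was listed at 0 in all 6 libraries and was not tested. With 500 bp on either side of the start in place of 2500 bp, 17 of the 19 were called, and Irf1 was not, nor was it with a pseudocount of 50 (0.91). Of 30 distal regions nearest to these genes, 17 were called higher and 3 lower, beside 16.2% and 29.3% of all distal regions. At chr5:92358647-92363871, 9758 bp from the start of Cxcl10, a region listed at 0 in the 0 h libraries had 185, 174 and 165 tags at 18 h.

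Late inflammatory genes, whose products include cytokines, chemokines and enzymes, were called higher at 16 of 20 tested starts and lower at none (median log2 change 2.23), beside 6.42% higher and 8.79% lower over all starts. Nos2, which makes nitric oxide, was listed at 0 in the 0 h libraries and had 598, 577 and 575 tags at 18 h. Its Pol II level went from a mean of 27.5 to 11600 tags. Acod1, which makes itaconate, had 29.1, 44.7 and 32.5 tags and then 1040, 851 and 866 (log2 change 4.36 ± 0.13). The chemokine gene Ccl5 had 20.8, 16 and 12.3 tags and then 1110, 969 and 932 (5.27 ± 0.12). Il6 had 22.5, 20.3 and 17.8 tags and then 236, 221 and 231 (2.99 ± 0.09), and Il1a had 55.2 to 60.1 and then 345 to 376 (2.44 ± 0.07). The NAD-consuming ectoenzyme gene Cd38 (4.25 ± 0.1) and the signalling inhibitor gene Socs3 (4.11 ± 0.07) were higher by more than the interleukin genes. Lcn2, an iron-siderophore binding protein, was listed at 0 at 0 h and had 83.5, 94.8 and 97.1 tags at 18 h. With the 500 bp window, Socs1, Ptges and Clec4e were not called.

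The 4 late genes that were tested and not called were Il1b, Il10, Il1rn and Ebi3. Il1b missed the size threshold with 96.7, 66.4 and 68.9 tags at 0 h and 128, 155 and 211 at 18 h (log2 change 0.99 ± 0.19), while its Pol II was called higher (1.09). It was called without the first 0 h library (1.15), the first 18 h library (1.15) or the second (1.02). Il10, an anti-inflammatory cytokine gene, had 194 to 220 and 208 to 238 tags (0.09 ± 0.07). Il12a and Ccl22 were listed at 0 in both groups, with means of 25.9 and 39.9 tags at 1 h. Il12b had a mean of 117 tags at 1 h and was listed at 0 otherwise, save 5.85 tags in 1 library at 0 h. Around Il12a, a subunit gene of interleukin 12, 5 of 11 distal regions were called higher and 2 lower. The distal regions near the late genes were higher in 42 and lower in 9 of 82 cases, beside 16.2% and 29.3% of all distal regions.

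Distal regions nearest to Nos2 and Acod1 are given as examples from the late genes, and position is their only tie to these genes. All 5 called regions near Nos2 were higher, of 6 tested, beside 16.2% higher and 29.3% lower over all distal regions. The one at chr11:78882517-78891240, 29547 bp from the start, had 51, 47.1 and 46.5 tags at 0 h and 1110, 1120 and 1070 at 18 h (log2 change 4.25 ± 0.05). Another, 42003 bp from the start at chr11:78871842-78878784, was listed at 0 at 0 h and at 1 h and had 342, 314 and 321 tags at 18 h. Near Acod1, the region at chr14:103011087-103022078 went from 55.8, 27.6 and 24.8 to 1640, 1610 and 1610 tags (log2 change 5.21 ± 0.22), more tags than at the start itself.

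Early LPS genes, which are induced within the first hour, were called in both directions. Of 10 tested starts, 3 were higher, 1 lower and 6 not called, beside 6.42% higher and 8.79% lower over all starts. Nfkbia, which encodes the NF-kB inhibitor IkB alpha, had 521, 387 and 428 tags at 0 h and 1150, 1140 and 1150 at 18 h (log2 change 1.36 ± 0.1), and Tnfaip3, which encodes the inhibitor A20, had 411 to 424 and 967 to 986 (1.21 ± 0.05). Ptgs2, the inducible cyclooxygenase, had 22.4 to 27 and 130 to 179 tags (2.22 ± 0.13). Cxcl2, a neutrophil chemokine, was lower, with 129, 396 and 104 tags at 0 h and 56.9, 31 and 45.7 at 18 h (-1.8 ± 0.43). Its mean at 1 h was 527 tags. Tnf had 524, 564 and 708 tags and then 928, 870 and 1170 (0.72 ± 0.14). Egr1 had 219 to 242 and 301 to 325 tags (0.4 ± 0.06) while its Pol II was called lower (-3.31). Tnfaip3, Ptgs2 and Cxcl2 were not called with the 500 bp window.

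Among the subunits and regulators of NF-kB, the subunit genes Nfkb1, Nfkb2, Rel and Relb had log2 changes of 0.24 to 0.69 and were not called. The 3 of 14 starts called higher were those of inhibitors, Nfkbib (163 to 215 and then 456 to 521 tags, 1.37 ± 0.1), Tnip1 (177 to 196 and then 419 to 432, 1.17 ± 0.06) and Tnip3 (43.9 to 57 and then 95.5 to 136, 1.1 ± 0.14). None was lower, beside 6.42% higher and 8.79% lower over all starts. Tnip1 and Tnip3 were not called with the 500 bp window, nor was Tnip3 without the third 18 h library (0.99) or with a pseudocount of 50 (0.75). All 6 distal regions nearest to Tnip1 were higher, beside 16.2% of all distal regions, the one with the most tags at chr11:54928076-54941968 with 747, 788 and 771 tags at 0 h and 3070, 3020 and 3080 at 18 h. Of 20 Toll-like receptor and adaptor genes, Tlr3 (1.29 ± 0.07), Tlr9 (1.21 ± 0.06), Irak3 (1.25 ± 0.15) and Myd88 (1.06 ± 0.17) were higher and none was lower, against the same shares of all starts, and none of the 4 was called with the 500 bp window. Myd88 was not called without the first 0 h library (0.84) or with a pseudocount of 50. Tlr4, the LPS receptor, had 946, 960 and 1030 tags and then 688, 693 and 638 (-0.53 ± 0.06). Tlr1 was not called at its start (0.19 ± 0.05), but 5 of its 6 distal regions were higher (16.2% of all), among them chr5:64895689-64904066 with 116 to 123 tags at 0 h and 1320 to 1340 at 18 h (3.38 ± 0.04).

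Of 15 tested starts of AP-1 genes, 1 was higher and 1 lower, beside 6.42% and 8.79% of all starts. Batf, which pairs with Jun proteins and IRFs, was higher, with 31.8, 22.5 and 28.8 tags at 0 h and 218, 153 and 145 at 18 h (log2 change 2.26 ± 0.16), and Fosl2 was lower, with 707, 725 and 782 and then 325, 347 and 331 (-1.12 ± 0.06; not called with the 500 bp window). The other 13 were not called, among them Jun (0.04 ± 0.06), Junb (0.38 ± 0.07) and Fos (-0.02 ± 0.09). Pol II over Fos was called lower (-1.21). All 4 called distal regions near Batf were higher, of 6 tested, and the one at chr12:85696116-85713746 went from 593, 608 and 593 to 2940, 2960 and 2990 tags (2.29 ± 0.02). Of the 9 regions near Fosl2, 6 were lower and none higher, beside 29.3% and 16.2% of all distal regions.

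The genes of antigen presentation split by class. MHC class I genes were called higher at 10 of 12 starts (median log2 change 1.4), beside 6.42% of all starts, and for Pol II in all 12, beside 12.6% of all genes. Tapbp, which loads peptide, had 162 to 202 tags at 0 h and 648 to 684 at 18 h (1.87 ± 0.08). Psmb8, an immunoproteasome subunit, had 243 to 262 and 900 to 992 (1.86 ± 0.06). Nlrc5, the class I transactivator, had 160 to 191 and 423 to 500 (1.39 ± 0.08). Only 2 class I starts were called with the 500 bp window. Of the 7 class II genes none was higher, and Ciita, their transactivator, was lower, with 46.3, 34.9 and 37.7 tags and then 17.3, 0 and 9.12 (-1.51 ± 0.32) and a mean of 211 at 1 h. Ciita was the 1 class II start called, beside 8.79% of all starts called lower, and was not called with a pseudocount of 50 (-0.62).

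Macrophage genes checked the cell type and changed in both directions. At 0 h the starts of Spi1 (1330, 1510 and 1590 tags), Csf1r (642, 729 and 670), Adgre1 (556, 630 and 581) and Cd68 (1630, 1760 and 1820) were all marked. Of 19 tested macrophage markers, 1 was higher and 5 lower at 18 h, beside 6.42% and 8.79% of all starts. With a pseudocount of 50 the lower ones came to 2, as Cx3cr1 (-0.91), Ccr2 (-0.94) and Cebpa (-0.98) were not called. C1qa, a complement subunit, had 558, 645 and 704 tags and then 51.5, 62.4 and 50.9 (log2 change -3.31 ± 0.1, adjusted p = 5.5e-08). Its neighbours C1qb (-0.25 ± 0.1) and C1qc (-0.42 ± 0.12) were not called, and Pol II over all 3 was called lower (-1.62, -1.11 and -1.1). Mrc1, the mannose receptor, had 500, 361 and 452 tags and then 193, 146 and 202 (-1.23 ± 0.14), with Pol II lower by -5.56. The chemokine receptor genes Ccr2 (-1.24 ± 0.14) and Cx3cr1 (35.8 to 52.1 tags, then listed at 0) were lower as well. Pol II was called lower over Ccr2 (-2.29) and was not called over Cx3cr1, where its change was positive (0.74). Of 20 markers tested for Pol II, 4 were called higher, Adgre1 (2.51) among them, and 10 lower. Over all genes the shares were 12.6% and 14.1%. Cebpa had 493, 494 and 519 tags and then 234, 229 and 226 (-1.09 ± 0.05), while Cebpb, the family member that LPS induces, had 395, 435 and 402 and then 954, 896 and 977 (1.18 ± 0.06). Mrc1, Cx3cr1, Cebpa and Cebpb were not called with the 500 bp window. Cd163, a haemoglobin scavenger receptor, was listed at 0 at its start in all libraries, but 5 of its 6 distal regions were lower (29.3% of all), among them chr6:124318863-124322964 with 343, 347 and 297 tags at 0 h and 0, 17.5 and 15.6 at 18 h.

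Among lipid genes, 2 of 13 LXR and lipid efflux starts and 2 of 17 sterol synthesis starts were called, beside 6.42% higher and 8.79% lower over all starts. Of the LXR and lipid efflux genes, Nr1h3, which encodes LXR alpha, was higher (610 to 751 and then 1400 to 1640 tags, 1.11 ± 0.1; not called with the 500 bp window). Scd1, a fatty acid desaturase, was lower (22 to 34.1 and then 0, 0 and 9.47 tags, -1.59 ± 0.28), but was not called with a pseudocount of 50 (-0.55). Of 65 distal regions nearest to these genes, 24 were lower and 4 higher, beside 29.3% lower and 16.2% higher over all distal regions. The start of the cholesterol exporter gene Abca1 was not called (-0.19 ± 0.13), while 8 of its 16 distal regions were lower and none higher, the strongest at chr4:53179938-53189780 with 1220, 1310 and 1240 tags and then 194, 222 and 201 (-2.55 ± 0.06). Near Pparg, a lipid-sensing nuclear receptor gene, 5 of 11 were lower and none higher. Both sterol synthesis starts that were called were lower, neither with a pseudocount of 50, and Cyp51, a demethylase of the pathway, was one of the lower (142 to 157 and then 55.9 to 72.9 tags, -1.09 ± 0.1). Cyp51 was not called with the 500 bp window.

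Among genes of energy metabolism, Hk3, a hexokinase (751, 790 and 847 tags, then 2270, 2250 and 2310, log2 change 1.51 ± 0.07), and the lactate exporter gene Slc16a3 (118 to 135 and then 280 to 316, 1.14 ± 0.07) were the 2 of 15 glycolysis starts that were higher, and none was lower, beside 6.42% and 8.79% of all starts. Slc16a3 was not called with a pseudocount of 50 (0.95). Pol II was called higher at 8 of 16 glycolysis genes, beside 12.6% of all genes. Pfkfb3, which makes the activator of phosphofructokinase, had no called start (-0.18 ± 0.06) but 13 of 19 distal regions higher and none lower, beside 16.2% and 29.3% of all, and its Pol II was higher (2.89). Its strongest distal gain, at chr2:11520910-11527674, went from 13.7, 15.6 and 19.4 to 600, 566 and 521 tags (4.45 ± 0.1). In the citric acid cycle, Idh2 (171, 193 and 210 tags, then 59.9, 66.6 and 61.3, -1.47 ± 0.09) and Idh3a (60.1 to 69.1 and then 17.3 to 29.5, -1.12 ± 0.15) were lower, both isocitrate dehydrogenase genes, and none of 12 was higher, beside the 8.79% and 6.42% of all starts. Idh3a was not called with the 500 bp window, with a pseudocount of 50 (-0.62) or without the first 18 h library (-0.96). None of 17 lysosome genes and none of 8 reference genes was called, at log2 changes of -0.91 to 0.98 and -0.62 to 0.69.

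Replication and mitosis genes were called lower at 10 of 23 starts and higher at none (median log2 change -0.81), beside 8.79% lower and 6.42% higher over all starts. With a pseudocount of 50, 6 were called lower, and Ccnb1, Ccnb2, Plk1 and Cdc6 were not. Rrm2, a ribonucleotide reductase subunit, had 123, 106 and 129 tags at 0 h and 18.3, 24.4 and 28.9 at 18 h (-1.94 ± 0.14). Tyms, thymidylate synthase, had 86.7 to 92 and 14.8 to 19.3 (-1.86 ± 0.11), and Mcm3, a helicase subunit, had 94.6 to 112 and 17.6 to 30.9 (-1.83 ± 0.15). Top2a, topoisomerase II, had 142, 166 and 131 and then 44.6, 33.7 and 37.4 (-1.68 ± 0.12). Pol II was called lower at 13 of the 23, beside 14.1% of all genes, and higher at Mcm5 alone (1.33), whose start lost H3K27ac (216 to 266 and then 60.2 to 70.2 tags, -1.71 ± 0.09). Mki67 had 182 to 191 and then 361 to 392 tags (0.96 ± 0.05). Ccnb1, Plk1 and Cdc6 were not called with the 500 bp window. Of 40 distal regions nearest to these genes 8 were higher and 4 lower, with a median log2 change of 0.3, beside 16.2% higher and 29.3% lower over all distal regions.

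Markers of other cells were mostly listed at 0 at their starts. In all 6 libraries this held for 7 of 9 lymphocyte, 7 of 11 neutrophil and progenitor, 3 of 5 dendritic cell and 8 of 10 stromal and erythroid markers, Cd3e, Ly6g, Mpo and Col1a1 included. Summed over the lists, lymphocyte markers had 270 to 294 tags at 0 h and 325 to 370 at 18 h, almost all at the start of Ms4a1, and neutrophil and progenitor markers had 98.1 to 110 and 54.1 to 71.8. In the latter list, Camp was called higher (listed at 0, then 27.6 to 35.5 tags) and S100a8 and Mmp8 lower, the latter pair not with the 500 bp window or after quantile normalization, none of the 3 with a pseudocount of 50, and Mmp8 not without the second 18 h library (-0.99). Dendritic cell markers summed to 522 to 574 and 427 to 464 tags, at Xcr1 and Clec9a. Stromal and erythroid markers summed to 730 to 847 and 915 to 1080 tags, almost all at Pecam1, which macrophages also express. Distal regions nearest to these markers were present and called. Of 14 nearest to neutrophil and progenitor markers 9 were lower and none higher (median log2 change -1.47), of 7 nearest to dendritic cell markers 5 were lower and 1 higher (-1.32), of 10 nearest to lymphocyte markers 2 were lower and 5 higher (1.28), and of 19 nearest to stromal and erythroid markers 6 were lower and 4 higher (0.04), beside 29.3% lower and 16.2% higher over all distal regions. Their part in the results was not tested.

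**Figure D3:**
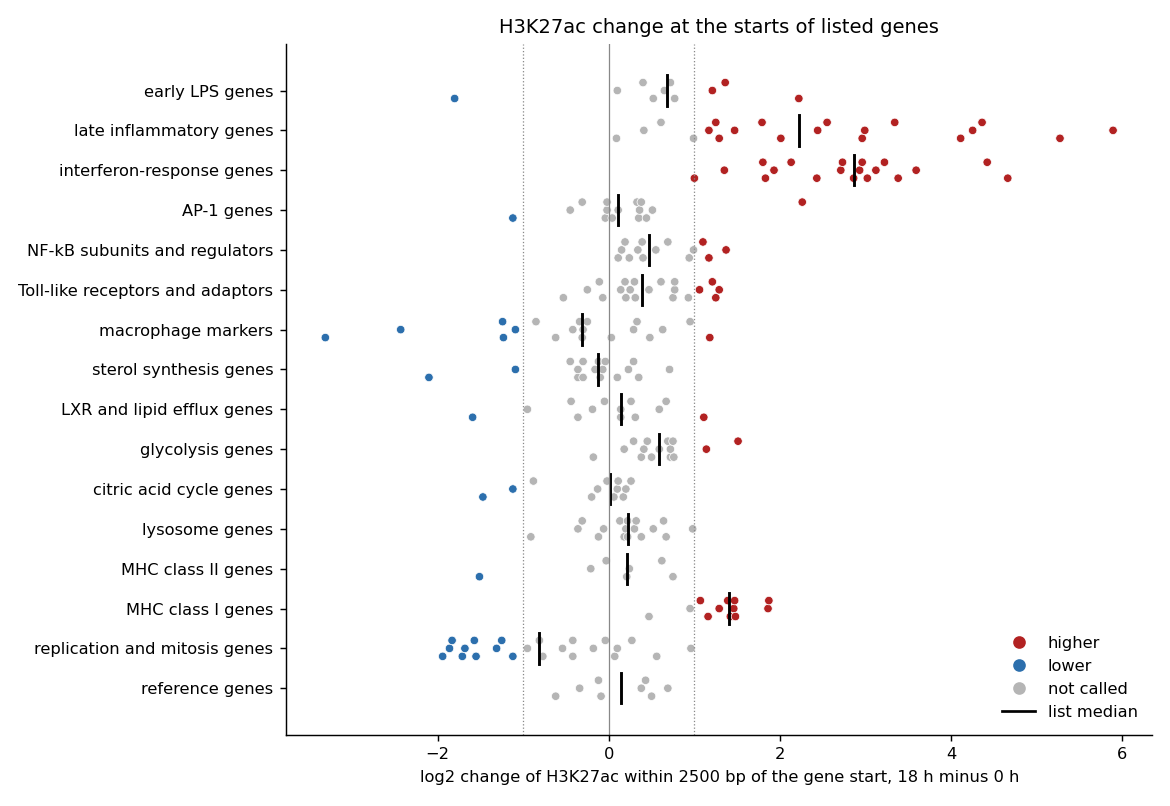
The log2 change of H3K27ac within 2500 bp of the gene start, 18 h minus 0 h (x axis), for each tested gene (point) of 16 lists (rows); red and blue points were called higher and lower, grey points were not called, black bars are list medians and dotted lines the size threshold. Interferon-response genes lie wholly to the right (1 to 4.66) and 10 of 23 replication and mitosis genes are called to the left.

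H3K27ac at the start and Pol II over the gene, measured in separate libraries, went in the same direction in most called genes. Of 715 genes with a higher start that were tested for Pol II, 528 (73.8%) were called higher and 6 lower for Pol II, with a median Pol II log2 change of 1.79. Of 951 genes with a lower start, 608 (63.9%) were called lower and 15 higher (median -1.36). Of 9722 genes whose start was not called, 8.98% were higher and 8.75% lower. Ptgs2 (Pol II log2 change 5.46 against 2.22 for H3K27ac), Oasl1 (6.87 against 2.96) and Mrc1 (-5.56 against -1.23) are examples in which the Pol II change was the larger on the log2 scale. Among the listed genes, Ccl2 and Ccl7, neighbouring chemokine genes with the same values at 18 h, gained H3K27ac (1.25 and 1.47) with Pol II log2 changes of -0.21 and -0.6 that were not called.

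**Figure D4:**
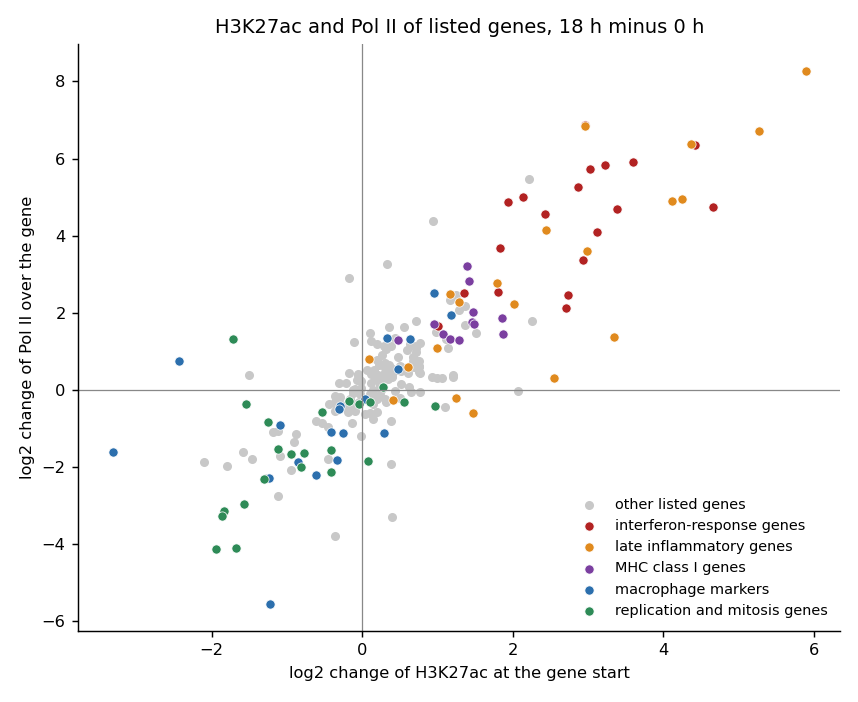
Each point is a listed gene tested for both marks, with the log2 change of H3K27ac at its start (x axis) and of Pol II over the gene (y axis), 18 h minus 0 h; colours mark 5 lists. Interferon-response genes lie in the upper right (Pol II changes of 1.66 to 6.87), and Mrc1, a macrophage marker, is the lowest point at -5.56.

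Distal regions followed the start of their nearest gene in part. Near genes with a higher start, 683 of 1809 distal regions (37.8%) were higher and 251 (13.9%) lower, near genes with a lower start 196 of 2973 (6.59%) were higher and 1471 (49.5%) lower, and near genes whose start was not called 3661 of 22403 (16.3%) were higher and 5773 (25.8%) lower. At least 1 higher distal region was nearest to 3450 genes and at least 1 lower one to 4757, and 1310 genes had both. The following genes were picked after their counts were seen, and over all distal regions 16.2% were higher and 29.3% lower. Pfkfb3 had the most higher distal regions (13 of 19), followed by Lpp (12 of 35), and Id2, an inhibitor of helix-loop-helix factors, had 10 of 27 higher and none lower. Cited2, a CBP/p300-binding regulator, had 27 of 55 lower. The repressor gene Zeb2 had 23 of 59 lower and the MEF2 family gene Mef2c 18 of 31, beside 29.3% of all distal regions. Klf6, a zinc finger factor gene, had 11 of 56 higher and 17 lower, near the shares of all distal regions. Genes with long intergenic flanks are nearest to more regions, so these counts also depend on position.

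At 1 h, 4515 of the 6505 regions called higher (69.4%) and 7939 of the 11369 called lower (69.8%) were found in at least 2 of 3 WT libraries, as were 21112 of the 27632 not called (76.4%). Of the weak gained regions, 41.9% of the 129 promoter and 47.8% of the 2300 distal regions were found in none of the 3 WT libraries at 1 h, and 33.3% of either class in all 3. Of the lost regions, 30.5% of the promoter and 42.1% of the distal regions were found in none at 1 h, and 44.6% and 31.5% were still found in all 3. The 1 h libraries held 13.51 to 20.88 M tags. Zbp1 (mean 586 tags at 1 h), Oas3 (520) and Ifit2 (427) stood between their 0 h and 18 h levels at 1 h. The means of Irf1 (714 tags at 1 h against 592 at 18 h) and Ifih1 (949 against 821), from the same list, were higher at 1 h than at 18 h. Nfkbie (means of 1150 tags at 1 h against 195 to 237 at 0 h and 432 to 446 at 18 h) and Tlr2 (974 against 196 to 240 and 248 to 278) were also highest at 1 h. The 1 h group was compared by values only.

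In Nur77-KO cells the regions called in WT went the same way. The sign of the log2 change was that of WT in 98.7% to 99.3% of the regions of each class and direction, with medians of 1.45 and -1.47 at promoter regions and 1.57 and -1.58 at distal regions. The Mir155hg region had KO means of 6.11 tags at 0 h and 3600 at 18 h. For the 24 regions with the largest changes, the difference between the KO change and the WT change was tested in all 12 libraries. It passed at 1, the region nearest to 1700056E22Rik (adjusted p = 0.03), which was listed at 0 at 18 h in both genotypes and had means of 512 tags in WT and 308 in KO at 0 h. At the other 23 the difference had adjusted p of 0.16 to 1 and lay between -0.99 and 1.25 on the log2 scale. Without the first KO library at 18 h 4 of the 24 passed, and without any 1 of 8 other libraries none did.

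Motif letters in the sequences were counted as a description, on both strands. The RefSeq table held a promoter for 8733 of the 11803 tested starts. The ISRE letters GAAANNGAAA stood in 74 of 525 promoters (14.1%) of starts called higher, in 15 of 690 (2.17%) of those called lower and in 2.75% of those not called, against 3.44% of all 32851 promoters in the table. The NF-kB motif stood in 13.7%, 9.13% and 9.88% (8.46% of all), the E2F letters GGCGGGA in 15.4%, 23.6% and 22.4% (11.3% of all), and the PU.1 letters GAGGAAG in 15.2%, 16.8% and 13.2% (13.6% of all). AP-1 letters (TGANTCA) stood in 8.76%, 6.38% and 4.2% (7.81% of all). The C/EBP letters TTGCNNAA stood in 13.3%, 10.0% and 7.62% (10.8% of all), and the STAT letters TTCNNNGAA in 10.7%, 6.23% and 6.69% (8.3% of all). GC content differed as well, with means of 56.7%, 60.3% and 61.2%. In the lists, 9 of 15 interferon-response promoters held ISRE letters, Cxcl10 and Ifit1 among them, and E2F letters stood in 6 of 20 replication and mitosis, 6 of 14 glycolysis and 4 of 9 NF-kB subunit and regulator promoters. In Cxcl10 the ISRE letters began 213 bases before the start and NF-kB matches began 159, 104 and 103 bases before it, the last 2 of them overlapping. In Il6 the NF-kB match began 44 bases before the start.

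In the middle 1000 bp of the distal regions, ISRE letters stood in 28.8% of those called higher, 14.7% of those called lower and 18.0% of those not called (18.8% of all tested). The NF-kB motif stood in 19.3%, 13.6% and 16.1%. The PU.1 letters had the opposite order, 35.7%, 47.8% and 43.6%, and AP-1 letters (TGANTCA) stood in 36.8%, 42.0% and 38.0%. Shares of the C/EBP letters TTGCNNAA (40.3%, 39.4% and 38.6%) and of the STAT letters TTCNNNGAA (30.1%, 28.6% and 28.3%) were close to each other. The ISRE letters can also match repeats rich in A, as in the region nearest to Rnf225, where 28 matches were found. GC content was alike, at 44.0%, 44.6% and 45.2%.

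**Figure D5:**
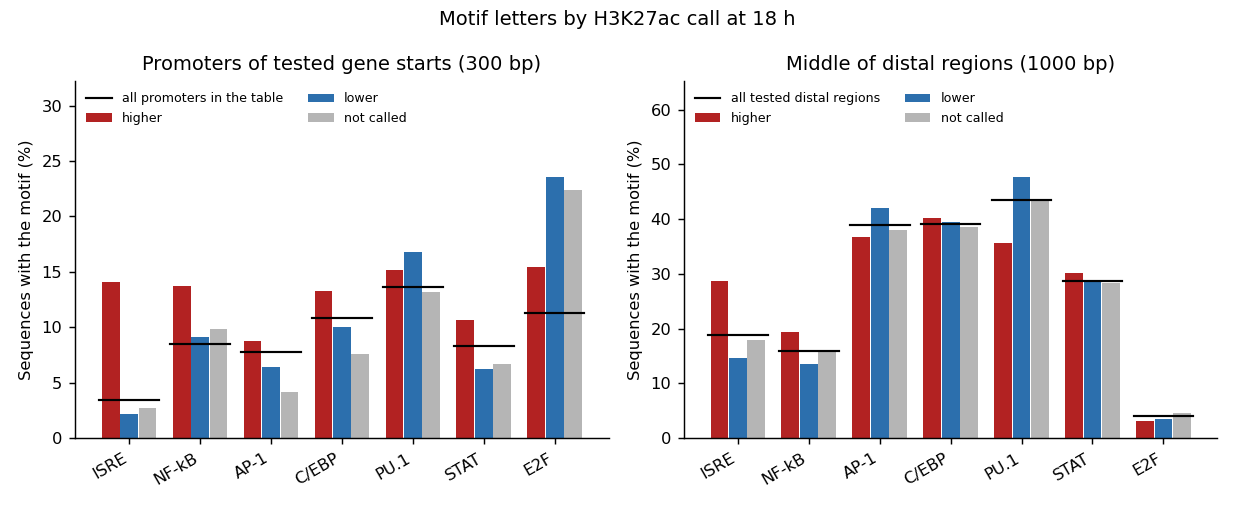
Share of sequences that hold each motif (y axis, percent) by H3K27ac call at 18 h, for promoters of 300 bp (left) and the middle 1000 bp of distal regions (right); black lines give the share of all promoters in the table and of all tested distal regions. ISRE letters are most frequent in sequences called higher (14.1% and 28.8%), and PU.1 letters in distal regions called lower (47.8%).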

How the data were processed

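The authors trimmed the reads with Skewer, aligned them to mm10 with HISAT2 2.1.0, removed duplicate tags and ran the region search of HOMER on single libraries (version not given in the sources used here). Per the file headers, windows of 500 bp were tested against the genome average (Poisson p 0.001), regions closer than 1000 bp were stitched and no input was used. The deposited signal is the tag count of a region normalized to 10 M (mega) tags. The values move in steps of 0.5 tag (all 32427 values under 10, within 0.05 of a step), so tags were recovered for an added test with voom weights. The members and gene lists were chosen with earlier results of these data known.

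Here, regions were merged on overlap, tags summed per library, and log2(tags + 10) tested with limma 3.58.1 (trend; R 4.3.3), with Benjamini-Hochberg adjustment over all regions that 2 or 3 libraries of either group had. A call needed an adjusted p under 0.05 and a log2 change beyond 1. Gene starts (2500 bp on either side, 21897 protein-coding genes) and Pol II over genes were tested alike, and KO minus WT changes as an interaction in 12 libraries. Groups came from the sample labels. Named regions were the 6 with the largest change per class and direction. They were taken from called regions whose groups did not overlap and that all 3 libraries of the higher group had. Genes were named by their lists. The microRNAs and the genes ranked by their number of distal regions were picked after their values were seen. On simulated data for 36113 regions, 91 of 100 changes of 1.5 and 95 of 100 of 2.5 (log2) were recovered. There were 2 false calls. The 36113 regions were fewer than the 45506 tested in the measured libraries, in which the rate of false calls was not tested. Depth was 15.04 to 31.15 M tags. The replicate numbers did not pair the libraries. Alternatives were other pseudocounts, filters, scalings, windows and merging, inputs and leaving out each library. pysam 0.24.0 and samtools 1.23.1 read the sequences. Some genes of the lists are counted but not reported by name here.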

Additional observations from a re-analysis of the deposited data

Results flagged for a closer look

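These are differences between the KO change and the WT change at 18 h that passed the interaction test (limma, adjusted over all regions tested), on the log2 scale. With all 12 libraries, the loss at the distal region nearest to 1700056E22Rik was smaller in KO by 0.71 (adjusted p = 0.03). The region was listed at 0 at 18 h in both genotypes, so this is the difference between the 0 h levels (means of 512 tags in WT and 308 in KO), and it passed in 4 of 12 fits that left out 1 library.

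Without the first KO library at 18 h, 4 of the 24 regions passed. The gain at the Mrpl39 region, which holds Mir155hg, was larger in KO by 1.95 (adjusted p = 0.00011), against 1.25 (adjusted p = 0.37) with all libraries. The gain at the Car13 region was larger by 0.81 (adjusted p = 0.0018), against 0.63 (adjusted p = 0.16) with all libraries, and the change at the Oacyl promoter differed by -0.77 (adjusted p = 0.0018), while with all libraries the difference was 0 (adjusted p = 1). The 1700056E22Rik region was again at 0.71 (adjusted p = 0.0037). That KO library is the deepest of its group (55.37 M tags against 31.3 and 33.41 M), and the part of depth was not tested. Without the third KO library at 18 h, the loss at the Hs3st1 region was smaller in KO by 0.77 (adjusted p = 0.034), against 0.48 (adjusted p = 0.45) with all libraries.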

How the results depend on the processing

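All 24 regions with the largest changes kept their call under every setting in which they could be tested. Their choice by size made a lost call unlikely from the outset. Only 7 could be tested when a region had to be in every library, and 1 when no input region overlapped. A pseudocount of 50 left 6394 regions called (1037 promoter, 5357 distal), 864 gene starts and 2232 genes for Pol II. Asking for a region in every library left 7527 regions (1376 promoter, 6151 distal), and testing no region that an input region overlapped left 5396 (616 promoter, 4780 distal), as fewer were tested. Gene starts numbered 920 with a 500 bp window. Leaving out 1 library gave 17686 to 18158 regions, 2047 to 2118 promoter and 15638 to 16040 distal regions, 1777 to 1852 gene starts, 3580 to 3614 genes for Pol II and 0 to 4 interactions. No interaction passed without the first or second WT library at 0 h, any WT library at 18 h or any KO library at 0 h, and 2 passed without the third KO library at 18 h.

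With the replicate number as a block, 18018 regions were called, 17870 of them among the 17874, although the numbers did not pair the libraries (correlations of deviations -0.044, 0.034 and 0.009). Of 86 listed starts that were called, 35 lost their call with the 500 bp window, 19 with a pseudocount of 50 and 13 after quantile normalization, Cebpb, Nr1h3 and Cyp51 among the last. The causes were not tested. With tags recovered and tested with voom weights, a region not found counted as 0 tags, 20558 regions were called, 17653 of the 17874 among them in the same direction. This test, input subtraction, a common density floor (15976 regions) and the interaction without each library were chosen after seeing the data. At 15.04 to 31.15 M tags, weak regions near the search threshold could not be told from regions that were not found.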
